A study of Danio rerio with 24 samples.

Results

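The crystallins, the structural proteins of the eye lens, were followed at the RNA level in zebrafish whose embryos had been treated with PCB126 or with DMSO alone. A gene was taken as a crystallin where its symbol, case ignored, began with crya, cryb or cryg, and cryptochromes were left out. This gave 55 of the 32105 genes in the count files. They comprised 3 alpha crystallins, 7 beta A crystallins, 6 beta B crystallins, 3 crybg genes, 30 gamma M crystallins, 2 gamma N crystallins and 4 gamma S crystallins. CRYAB, CRYBA2, CRYGN and CRYGS are each the name of 2 genes in the names table and are told apart by Ensembl ID. Every member had a read in some library, but 9 members had under 10 reads in each library.

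PCB126 is a polychlorinated biphenyl and an agonist of the aryl hydrocarbon receptor (AHR), the receptor of dioxins. There were 24 libraries in 8 groups of 3, which the series text calls biological replicates. Embryos at 48 hours post-fertilization (hpf), labelled as embryos with no organ named, had received 0.3 nM PCB126 or DMSO. Larvae at 5 days post-fertilization (dpf) had received DMSO, 0.3 nM or 1.2 nM, as had the fish whose brains were taken at 4 months of age, raised in clean water after the exposure as embryos. Strain, sex, the number of animals in a library and the hours of exposure are not stated in the labels. RNA of brains was extracted by a method other than the kit used for embryos and larvae, so that age, tissue and extraction cannot be told apart between brain and larvae. By its title the study concerns expression in the adult brain after early exposure, and the crystallins were read in all 8 groups.

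Alpha crystallins belong to the small heat shock proteins and act as chaperones that keep other lens proteins soluble; CRYAA is largely a lens protein, whereas CRYAB is also made in muscle and brain of mammals. Beta and gamma crystallins share Greek-key folds and fill the fibre cells of the lens at high concentration. Fish lenses are dense and hold many methionine-rich gamma M crystallins. The genes crybg1a and crybg1b are counterparts of human CRYBG1, a protein with the same type of fold that is made outside the lens. In whole animals, more lens cells and more RNA per lens cell cannot be told apart.

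Libraries held 12480715 to 23022236 counted reads, with 76585 to 185571 crystallin reads in a library of embryos or larvae and 621 to 1563 in a library of brain. All 3 DMSO brain libraries (19498374 to 23022236 reads) were deeper than every exposed brain library (13097392 to 18043641 reads). The AHR target CYP1A1, the check of exposure, was at 203 ± 49.4 CPM (counts per 1e+06 counted reads) in exposed embryos and 16.2 ± 4.63 CPM in DMSO embryos (mean ± SD, n = 3 each; edgeR quasi-likelihood test, Benjamini-Hochberg adjusted p = 0.00239). In larvae it averaged 28.0 ± 1.43 CPM after DMSO, 99.0 ± 51.4 CPM after 0.3 nM (adjusted p = 0.995) and 671 ± 332 CPM after 1.2 nM (adjusted p = 0.0933). The brain label was set beside 10 nervous-tissue genes, which cannot test it because they were chosen after their values were seen. All were higher on average in brain than in larvae. GFAP was at 169 against 159 CPM and the myelin gene mbpa at 7406 against 87.5 CPM. Over the brain libraries GFAP ranged from 104 to 219 CPM, and in embryos it averaged 251 CPM.

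Crystallin RNA was abundant in whole embryos and larvae and close to absent from brain. As a share of all counted reads, it averaged 0.672% ± 0.107 in exposed embryos and 0.704% ± 0.0211 in DMSO embryos. In larvae the share was 0.870% ± 0.0229 after DMSO, 0.865% ± 0.0311 after 0.3 nM and 0.911% ± 0.0566 after 1.2 nM (SD, n = 3 each). In brain it was 0.00624% ± 0.000476 after DMSO, 0.00491% ± 0.000509 after 0.3 nM and 0.00521% ± 0.000984 after 1.2 nM. These sums were given no test, because the members were chosen with results of these data known.

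Gamma M, beta A and beta B genes supplied nearly all of these reads in embryos and larvae. In DMSO larvae they took 41.0% ± 0.914, 26.8% ± 0.306 and 24.0% ± 0.651 of the crystallin reads. In DMSO embryos the same classes took 37.5% ± 1.76, 29.4% ± 0.532 and 25.3% ± 1.41. The gamma M share ranged from 40.1% to 41.9% in larvae and from 35.5% to 38.9% in embryos, so these libraries did not overlap. The crybg share was also separate and higher in larvae, and the beta A and gamma N shares were separate and lower. The beta B, alpha and gamma S shares overlapped. The classes divide 1 total, so a lower share need not mean less RNA. Summed CPM averaged 2257 for beta A and 408 for gamma N in DMSO larvae, against 2141 and 373 in DMSO embryos. By CPM of single genes, a measure unlike these shares, 35.4% of all genes were separate and higher in larvae between these groups. Another 34.8% were separate and lower. Gamma N genes took 4.84% ± 0.232 in DMSO larvae and 5.12% ± 0.0671 in DMSO embryos, crybg genes 2.90% ± 0.228 and 2.09% ± 0.231, and alpha genes 0.540% ± 0.0736 and 0.546% ± 0.00778, larvae given before embryos. All shares of reads depend on transcript length, for which no annotation of the files' build was available, so levels of different genes are not ranked.

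**Figure D1:**
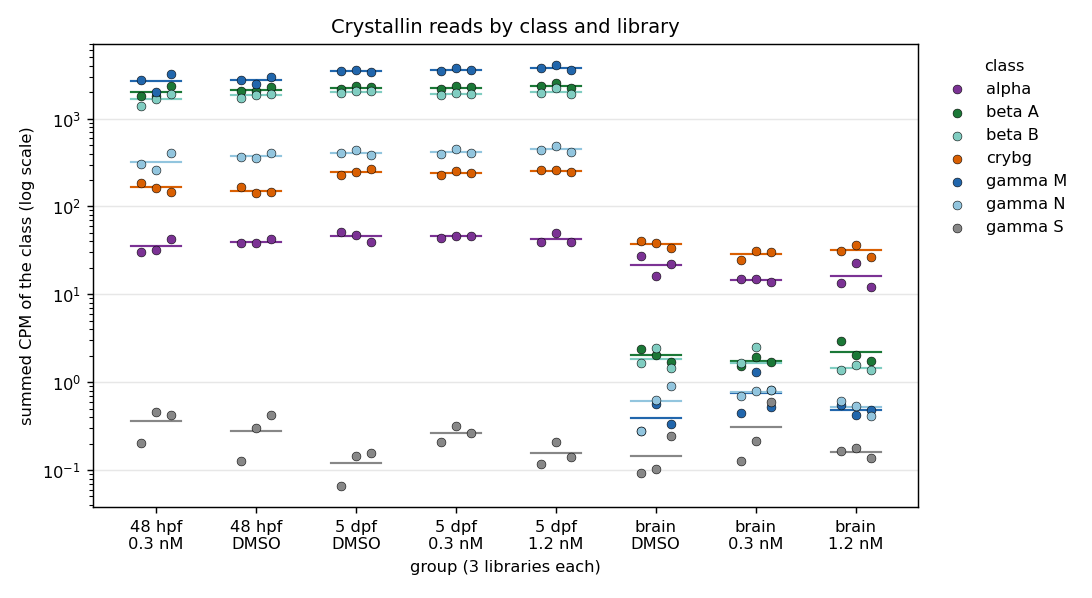
Summed CPM of each crystallin class (log axis) in the 3 libraries of each group, with a bar at the mean. Gamma M, beta A and beta B sums lie between 1402 and 4067 CPM in embryos and larvae and at or under 2.93 CPM in brain, whereas the crybg sums in brain run from 24.8 to 40.4 CPM.

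The member with the highest mean CPM over embryos and larvae is given for each class. The alpha crystallin CRYAA had 30.5, 31.6 and 42.4 CPM in exposed embryos and 38.0, 38.5 and 41.8 CPM in DMSO embryos. In larvae CRYAA had 48.1, 46.1 and 37.7 CPM after DMSO, 42.3, 43.9 and 44.9 CPM after 0.3 nM, and 38.9, 48.7 and 37.8 CPM after 1.2 nM. The groups of each age overlapped. In brain CRYAA was at 0 to 0.144 CPM, that is 0 to 3 reads in a library.

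Among the beta crystallins, cryba1b had 484, 539 and 651 CPM in exposed embryos and 569, 628 and 639 CPM in DMSO embryos. In larvae cryba1b had 578, 613 and 629 CPM after DMSO, 562, 615 and 588 CPM after 0.3 nM, and 598, 685 and 591 CPM after 1.2 nM. The beta B gene crybb1l1 had 566, 695 and 769 CPM in exposed embryos and 698, 791 and 773 CPM in DMSO embryos. Both genes had their lowest embryo value in the same exposed library, replicate 1. In larvae crybb1l1 had 709, 748 and 792 CPM after DMSO, 674, 727 and 708 CPM after 0.3 nM, and 705, 825 and 707 CPM after 1.2 nM. For both genes the 3 larval groups overlapped.

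Among the gamma crystallins, crygm2d13 had 337, 288 and 423 CPM in exposed embryos and 359, 336 and 401 CPM in DMSO embryos. In larvae crygm2d13 had 436, 441 and 456 CPM after DMSO, 456, 499 and 467 CPM after 0.3 nM, and 477, 538 and 468 CPM after 1.2 nM. The larvae exposed to 1.2 nM were all above the DMSO larvae, by a small margin. The gamma N gene CRYGN ENSDARG00000030411 had 300, 260 and 400 CPM in exposed embryos and 363, 352 and 402 CPM in DMSO embryos. In larvae it had 398, 429 and 378 CPM after DMSO, 392, 439 and 400 CPM after 0.3 nM, and 438, 474 and 413 CPM after 1.2 nM. These groups of gamma N values overlapped at both ages. Gamma S genes, which make up a lens class of their own in mammals, were hardly read at all. CRYGS ENSDARG00000041171, the highest by its mean over embryos and larvae, did not exceed 0.420 CPM or 7 reads in any library, crygs4 reached 0.444 CPM or 6 reads in 1 brain library, and none of the 4 passed the filter on low counts.

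DMSO larvae were compared with DMSO embryos to see how the family differs between these ages of whole animals. Of the 46 crystallins tested, 16 rose, 5 fell and 25 were not called at an adjusted p under 0.05 (edgeR quasi-likelihood test adjusted over all genes). Of all 22545 genes tested, 63.7% were called, 32.3% higher and 31.4% lower, so the share of crystallins called, 45.7%, lies under that background. The median log2 fold change was 0.27 for the crystallins and 0.0045 for all genes. The 3 larval libraries lay above all 3 embryo libraries for 22 members and below them for 5, against 35.4% and 34.8% of all genes. The members that passed the filter did so partly through the age at which they are high, so these counts describe the tested members and not the whole family.

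The calls were unevenly spread over the classes, beside 32.3% of all genes called higher and 31.4% called lower. Classes other than gamma M held at most 7 tested genes each. Of the 26 gamma M genes tested, 13 rose and 1 fell, with a median of 0.35. Of 7 beta A genes none was called, with log2 fold changes between -0.02 and 0.32, and of 6 beta B genes 2 fell and none rose. Of 3 crybg genes 1 rose and 2 fell, and in the alpha and gamma N classes 1 of 2 tested genes rose in each.

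Of the alpha crystallins, CRYAB ENSDARG00000101380 was called higher in larvae, from a very low level. The gene did not pass the filter in the fit of embryos and was tested here through larvae and brain. A higher value in larvae was therefore set beforehand, and the call supports no statement. It had 2.48, 0.862 and 1.31 CPM in DMSO larvae and 0.254, 0.119 and 0.600 CPM in DMSO embryos (4.77-fold, log2 fold change 2.25, SE 0.54, adjusted p = 0.000939), and every larval library was above every embryo library. CRYAA differed little, with 43.9 CPM on average in DMSO larvae and 39.4 CPM in DMSO embryos (log2 fold change 0.16, SE 0.12, adjusted p = 0.272). The other CRYAB, ENSDARG00000042621, had at most 4 reads in any library and was not tested.

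Of the beta crystallins, the members with the highest counts hardly moved. The log2 fold change was -0.01 (SE 0.14) for cryba1b and -0.01 (SE 0.16) for crybb1l1, whose libraries overlapped between the ages. CRYBA1 and cryba1l1, the beta A genes with the largest log2 fold changes, also did not pass. CRYBA1 had 1.63, 2.08 and 2.01 CPM in DMSO larvae and 1.40, 1.19 and 1.98 CPM in DMSO embryos (log2 fold change 0.32, adjusted p = 0.315). For cryba1l1 the values were 489, 546 and 456 CPM in DMSO larvae and 440, 442 and 481 CPM in DMSO embryos (0.13, adjusted p = 0.423). In both genes the groups overlapped.

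The 2 beta B genes that fell were low ones. CRYBB2 had 0.196, 0.0718 and 0.0773 CPM in DMSO larvae and 0.826, 0.476 and 0.660 CPM in DMSO embryos, which amounts to 1 to 3 reads in a larval library and 8 to 13 in an embryo library (log2 fold change -2.39, SE 0.64, adjusted p = 0.00244). CRYBB2 passed the filter only through embryo and brain libraries, so it had to be lower in larvae. The beta B gene crybb1l3 averaged 6.23 CPM in DMSO larvae and 9.34 CPM in DMSO embryos (-0.59, SE 0.23, adjusted p = 0.031). CRYBB3 was at 0.327, 0.503 and 0.0773 CPM in DMSO larvae and 0.0635, 0.119 and 0.240 CPM in DMSO embryos, and the groups overlapped (1.07, adjusted p = 0.172). CRYBB1 just missed the threshold at 652 CPM in DMSO larvae and 519 CPM in DMSO embryos (0.33, SE 0.14, adjusted p = 0.0506), although every larval library was higher.

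The crybg genes held the largest fold change among crystallins with reads in both groups. The gene crybgx had 117, 133 and 138 CPM in DMSO larvae and 7.81, 6.31 and 3.90 CPM in DMSO embryos, with no overlap (21.5-fold, log2 fold change 4.43, SE 0.21, adjusted p = 1.52e-12). Its relatives went the other way. The values of crybg1b were 4.71, 5.46 and 5.03 CPM in DMSO larvae and 9.72, 9.29 and 6.48 CPM in DMSO embryos (-0.75, SE 0.22, adjusted p = 0.00536). The values of crybg1a were 104, 106 and 122 CPM in DMSO larvae and 148, 128 and 135 CPM in DMSO embryos, a narrow gap (-0.31, SE 0.12, adjusted p = 0.0232). Larvae had 104, 118 and 111 CPM of crybg1a after 0.3 nM and 117, 111 and 110 CPM after 1.2 nM, which overlap the DMSO larvae.

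Among the gamma crystallins a few genes moved far more than the rest. The gamma M gene crygm2d11 had 183, 187 and 182 CPM in DMSO larvae and 34.4, 24.9 and 25.8 CPM in DMSO embryos (6.49-fold, log2 fold change 2.70, SE 0.14, adjusted p = 5.69e-13). The low gene crygm2e had 3.40, 3.88 and 2.17 CPM in DMSO larvae and 0.127, 0.298 and 0.180 CPM in DMSO embryos (15.04-fold, adjusted p = 4.01e-07). This low gene passed the filter only through larvae and had to be higher there. For crygm2f the means were 4.67 and 0.688 CPM (6.69-fold, adjusted p = 1.73e-07), larvae given before embryos. Larvae and embryos did not overlap in these genes.

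At the edge of detection, crygm7 had 38 reads over the 3 DMSO larvae and 0 over the 3 DMSO embryos, so that larvae were at least 14.8-fold higher when the embryos are set to 3 reads over the group. Only larvae took crygm7 through the filter, so it had to be higher there. The gamma N gene CRYGN ENSDARG00000102129 had 7.13, 6.32 and 6.34 CPM in DMSO larvae and 0.508, 0.595 and 0.900 CPM in DMSO embryos (9.76-fold, log2 fold change 3.29, SE 0.33, adjusted p = 7.23e-09). Its abundant partner ENSDARG00000030411 differed by 0.11 (SE 0.13, adjusted p = 0.492). The 9 other gamma M genes that rose did so by 1.22-fold (crygm2d1) to 1.95-fold (crygm2d16), with crygmx at 1.88-fold and crygm5 at 1.75-fold. A single gamma M gene fell, crygmxl1, at 1.95 CPM in DMSO larvae and 4.29 CPM in DMSO embryos (-1.14, SE 0.28, adjusted p = 0.00194).

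The smaller calls rest on few libraries. Without DMSO embryo replicate 2, crygm2d1, crygm2d4, crygm2d7, crygm2d10 and crygm2d15 were no longer called, with adjusted p between 0.0629 and 0.121. With median-ratio size factors in place of TMM, crybb1l3 (adjusted p = 0.06) and crybg1a (adjusted p = 0.0871) were no longer called.

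**Figure D2:**
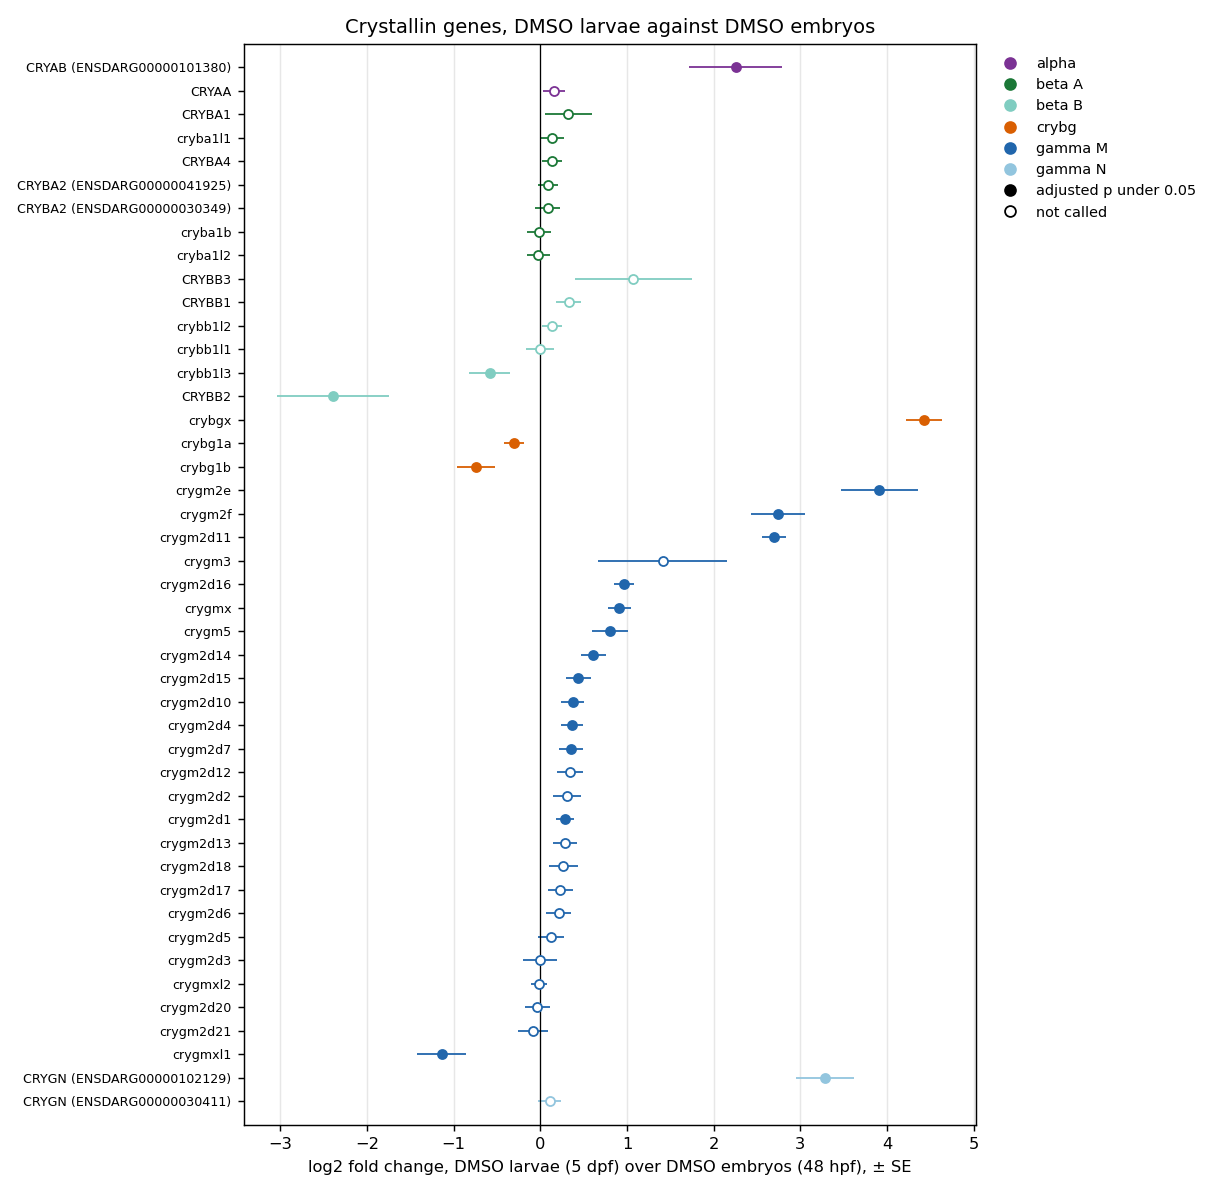
Log2 fold change (DMSO larvae at 5 dpf over DMSO embryos at 48 hpf) with its standard error for 45 of the 46 crystallins tested, by class, with filled points for an adjusted p under 0.05; crygm7, without a read in embryos, is left out. Beta A genes cluster at 0, whereas crybgx (4.43), crygm2e (3.91) and CRYGN ENSDARG00000102129 (3.29) stand far to the right and CRYBB2 (-2.39) to the left. CRYBB2 passed the filter only through embryos and brain, crygm2e only through larvae, and CRYAB ENSDARG00000101380 only through larvae and brain. The directions of these genes were therefore set beforehand.

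Most gamma M genes are neighbours in the genome. The RefSeq annotation of the assembly GRCz12tu was used here for gene order only, since the counts were made on GRCz10. Among its protein-coding genes, 31 crystallin genes follow each other, and genes of other types may lie between them. The files hold 26 of the 31, and 23 were tested. Of these, 11 rose between embryos and larvae and 1 fell, with a median of 0.34. Among 18 tested genes of the crygm2d group 8 rose, and those other than crygm2d11 had folds between 0.941 and 1.95. The 6.49-fold rise of crygm2d11 lies between its nearest protein-coding neighbours at 0.28 (crygm2d13, adjusted p = 0.0743) and 0.44 (crygm2d15, adjusted p = 0.0109) on the log2 scale. The file names give the union mode of counting, which leaves out a read that overlaps more than 1 gene. How reads aligning equally well to several gene copies were counted is not known here. Values of near-identical crygm2d copies are therefore uncertain, and how alike these copies are was not analysed here. The other 5 genes of this stretch, crygm2b, crygm2c, crygm2d8, crygm2d9 and crygm2d19, were not analysed here.

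**Figure D3:**
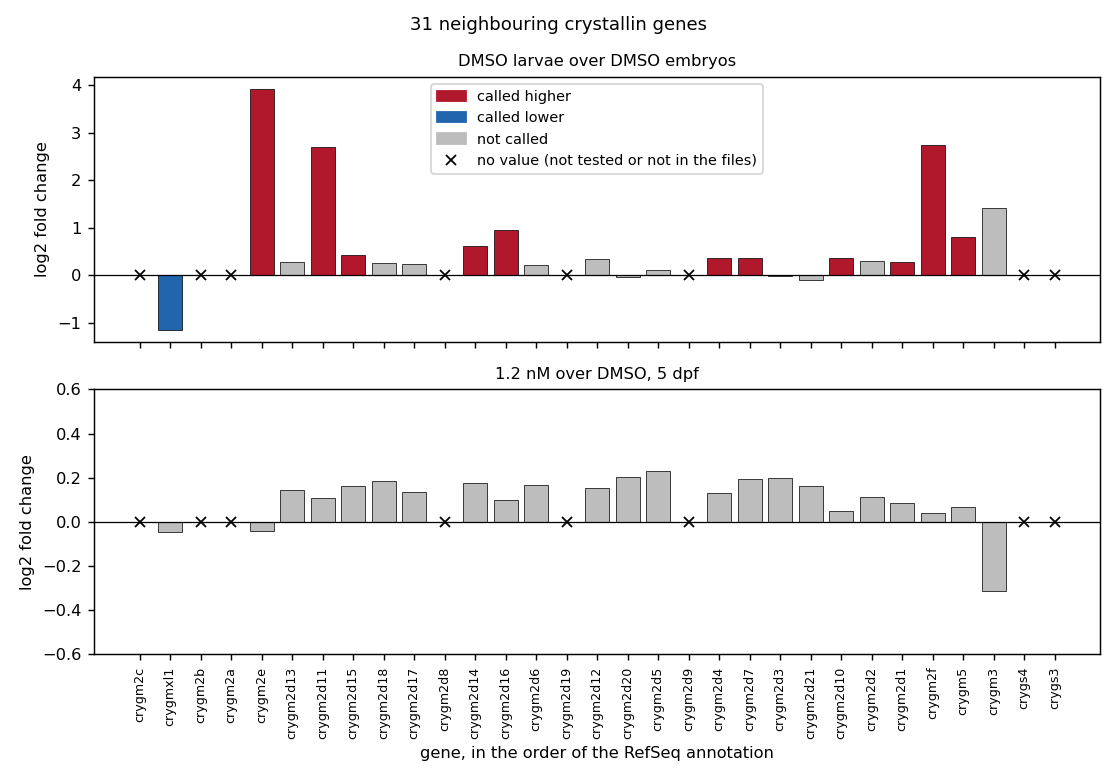
Log2 fold change of the 31 neighbouring crystallin genes in RefSeq order of protein-coding genes, for DMSO larvae over DMSO embryos (above) and for 1.2 nM PCB126 over DMSO at 5 dpf (below, with another axis range), with crosses for genes without a value. In the upper panel crygm2e (3.91), crygm2d11 (2.70) and crygm2f (2.74) rise out of a low row, and in the lower panel all 18 crygm2d bars lie between 0.05 and 0.23 with none called. Of these, crygm2e passed the filter only through larvae.

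Other lens genes were read from lists, beside 32.3% of all genes called higher and 31.4% called lower. Of 23 tested genes of a list of lens structure genes without crystallins, 3 rose and 8 fell from embryos to larvae (median -0.13). LGSN, which encodes the lens protein lengsin, averaged 29.9 CPM in DMSO larvae and 20.4 CPM in DMSO embryos (adjusted p = 0.000357). The cell cycle inhibitor cdkn1ca averaged 12.0 CPM in DMSO larvae and 65.5 CPM in DMSO embryos (adjusted p = 9.51e-14). Of 21 lens transcription factors 1 rose and 13 fell, among them the lens epithelium factor foxe3 at 0.906 and 1.71 CPM (adjusted p = 0.0157). Many genes of both lists, cdkn1ca among them, are also active outside the lens.

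Lists of tissues next to the lens were read beside the same 32.3% of all genes called higher and 31.4% called lower. In whole animals the changes of the pigment and epithelium lists cannot be placed in the eye. Of 35 photoreceptor genes 30 rose and 3 fell (median log2 fold change 4.98), of 13 pigment epithelium genes 3 rose and 10 fell, and of 8 genes of corneal and skin epithelium 1 rose and 7 fell. Of 9 small heat shock genes, the family of the alpha crystallins, 2 rose and 3 fell. As with the crystallins, genes of these lists and of the lens lists passed the filter partly through the age at which they are high. The counts and medians therefore describe the tested genes only. The part of eye tissue in the crystallin changes was not tested.

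At 48 hpf, none of the 40 crystallins tested was called between embryos exposed to 0.3 nM and DMSO embryos (0 by edgeR and 0 by DESeq2). Of all 20265 genes, 0.00987% were called. An unadjusted p under 0.05 was found for 1 crystallin with edgeR and 3 with DESeq2, and for 525 genes in all with edgeR. The log2 fold change was positive in 17 and negative in 23 crystallins, with a median of -0.05 against 0.0032 for all genes. Only crygm5 had groups that did not overlap, at 3.42, 3.55 and 3.56 CPM in exposed embryos and 3.11, 3.10 and 1.80 CPM in DMSO embryos, where 3.8% of all genes were separate and higher and 3.62% separate and lower.

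The crystallin with the lowest unadjusted p was crybg1b. It had 14.2, 14.97 and 9.17 CPM in exposed embryos and 9.72, 9.29 and 6.48 CPM in DMSO embryos (log2 fold change 0.58, SE 0.21, unadjusted p = 0.0159, adjusted p = 1). The groups overlapped, but in each replicate number the exposed library was above the DMSO library. Same-numbered libraries deviated together at this age, so the numbers were taken to pair them. That pairing was read from these same counts, and the labels do not say what a number marks. With the replicate number as a block the log2 fold change of crybg1b was 0.58 (SE 0.12, unadjusted p = 0.000151, adjusted p = 0.0722), 0 crystallins and 27 genes were called, and 6 crystallins had an unadjusted p under 0.05.

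The other 5 of these crystallins pointed both ways. In the fit with the block, crygm2d11 (0.36, SE 0.10) and crybgx (0.59, SE 0.19) were higher, with unadjusted p of 0.00341 and 0.00933. CRYGN ENSDARG00000030411 (-0.24, SE 0.09), crygmx (-0.20, SE 0.09) and CRYAA (-0.19, SE 0.09) had negative values, with unadjusted p of 0.0137, 0.0387 and 0.0489. Their adjusted p lay between 0.295 and 0.686, and none was called. For crybgx the libraries had 12.2, 5.79 and 9.05 CPM in exposed embryos and 7.81, 6.31 and 3.90 CPM in DMSO embryos, which overlap.

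Crystallins varied more between the exposed embryo libraries than most genes did. Over 33 members with at least 10 CPM, the median coefficient of variation was 21.6% in exposed embryos, against 9.37% for all genes of that level. In DMSO embryos it was 7.95% for the crystallins (32 members) and 8.08% for all genes. The exposed replicates 2 and 3 stood at opposite ends: replicate 2 was the lowest of the 6 embryo libraries for 22 of 40 crystallins (20.1% of all genes), and replicate 3 was the highest for 25 of 40 (12.9% of all genes). Against the DMSO library of the same number, the exposed library was higher for 18, 9 and 30 of the 40 crystallins in replicates 1, 2 and 3, while all genes split at 48.5% to 49.6% in each. The 3 exposed embryo libraries thus differed among themselves in crystallin level more than their mean differed from the DMSO mean. The crystallins come from the same libraries and are not independent of each other, so these counts of members describe 3 libraries only.

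Larvae exposed to 0.3 nM also showed 0 called crystallins of 44 tested at 5 dpf, with edgeR and with DESeq2, where 0% of all 21719 genes were called by edgeR. No crystallin had an unadjusted p under 0.05 with either tool, and 1034 genes had one with edgeR. Values were positive in 30 and negative in 14 crystallins, with a median of 0.04 against 0 for all genes. Of the 26 gamma M genes tested 21 were positive and 5 negative, with a median of 0.07. Groups did not overlap in 4 crystallins that were higher and 1 that was lower, where 5.48% of all genes were separate in each direction.

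In larvae exposed to 1.2 nM every crygm2d gene had a positive log2 fold change of small size, and no crystallin passed the test. Of 44 tested, 0 were called with edgeR and with DESeq2, where edgeR called 0.046% of all genes, 0.0322% higher and 0.0138% lower. An unadjusted p under 0.05 was found for 10 crystallins with edgeR and 8 with DESeq2, and for 1472 genes in all with edgeR. Positive log2 fold changes were found in 34 and negative ones in 10 crystallins, with a median of 0.10 against -3e-04 for all genes. The exposed larvae lay above all DMSO larvae for 10 crystallins and below them for none, where 6.68% and 5.64% of all genes did so.

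Gamma M genes made up 26 of the 44 crystallins tested and 22 of the 34 with a positive log2 fold change. The median of the class was 0.14. All 18 crygm2d genes were positive, between 0.05 and 0.23, or 1.03-fold to 1.17-fold, and 8 of them had groups that did not overlap. The smallest p belonged to crygm2d5, with 56.5, 62.3 and 53.7 CPM after DMSO, 61.8, 62.8 and 61.6 CPM after 0.3 nM, and 67.7, 70.4 and 65.5 CPM after 1.2 nM. Its 1.2 nM libraries were above all others (log2 fold change 0.23, SE 0.07, unadjusted p = 0.00375, adjusted p = 0.517). For crygm2d7 the values were 141, 141 and 141 CPM after DMSO, 145, 158 and 148 CPM after 0.3 nM, and 163, 174 and 150 CPM after 1.2 nM, again without overlap between 1.2 nM and DMSO (0.20, SE 0.07, adjusted p = 0.621). The crygm2d genes lie next to each other among protein-coding genes and were read from the same libraries, so they are not independent of each other.

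Single libraries stood out here. The 1.2 nM replicate 2 was the highest of the 9 larval libraries for 29 of the 44 crystallins (19.04% of all genes), and the DMSO replicate 3 was the lowest for 18 of them (13.5% of all genes). Among the other classes, 5 of 7 beta A genes and 2 of 4 beta B genes had a positive value at 1.2 nM, with medians of 0.04 and -0.01. Both alpha crystallins tested were negative, while both gamma N genes and all 3 crybg genes were positive, each without a call. The crybg gene crybg1b had 4.71, 5.46 and 5.03 CPM after DMSO, 4.35, 5.56 and 7.17 CPM after 0.3 nM, and 7.37, 6.30 and 7.31 CPM after 1.2 nM. Its 1.2 nM libraries were above all DMSO libraries (0.46, SE 0.17, unadjusted p = 0.0134, adjusted p = 0.639).

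**Figure D4:**
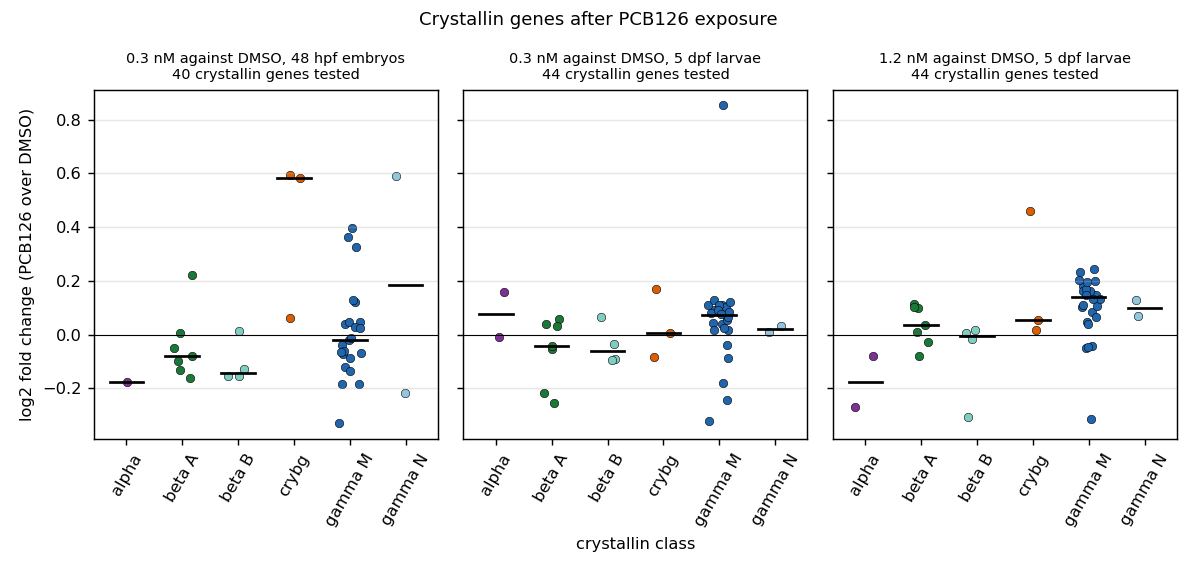
Log2 fold change (PCB126 over DMSO) of each tested crystallin by class, with a bar at the class median, for 0.3 nM at 48 hpf, 0.3 nM at 5 dpf and 1.2 nM at 5 dpf; both larval comparisons share the DMSO larvae. Gamma M genes spread around 0 in embryos (median -0.02) and lie mostly above it in larvae at 0.3 nM (median 0.07) and 1.2 nM (median 0.14). No point is called.

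The larvae of 1.2 nM set against those of 0.3 nM gave 0 called crystallins of 44 (edgeR; 0 by DESeq2), where 0.023% of all genes were called, 0.00921% higher and 0.0138% lower. Groups did not overlap in 4 crystallins that were higher and 0 that were lower, against 5.47% and 4.33% of all genes, and 2 crystallins had an unadjusted p under 0.05 (1 by DESeq2), as had 993 genes in all by edgeR. These were crygm3 at -1.17 and crybb1l3 at -0.38, both lower after 1.2 nM. For the effect of 0.3 nM in larvae against that in embryos, 0 of 46 crystallins were called by edgeR and 0 by DESeq2, where 0% of all genes were called by edgeR. An unadjusted p under 0.05 was found for 1 crystallin with each tool and for 820 genes in all with edgeR. None of the lists of lens structure, lens transcription factor, photoreceptor, pigment epithelium, epithelium or small heat shock genes had a called member in embryos or larvae.

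Nearly all crystallin reads of adult brain came from 3 genes. CRYAB ENSDARG00000101380, crybg1a and crybg1b, singled out after their values were seen, made up 86.8% to 93.2% of the crystallin reads in the 9 brain libraries. The other 52 members summed to 4.29 to 6.97 CPM, or 62 to 113 reads a library, with at most 21 reads for any of them in 1 library. Of the 30 gamma M genes, 12 had no read in any of the 9 brains. In DMSO brain the summed gamma M level was 0.395 ± 0.155 CPM, against 3455 ± 90.1 CPM in DMSO larvae.

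DMSO brain against DMSO larvae gave 42 lower, 2 higher and 2 uncalled crystallins of 46 tested, where 77.4% of all genes were called, 39.9% higher and 37.5% lower. All 7 beta A genes, all 26 tested gamma M genes and both gamma N genes were lower. For 17 gamma M genes without a read in DMSO brain the drop was at least 10.3-fold to at least 3994-fold, with DMSO brain set to 3 reads over the group. A further 11 members that were lower had 1 to 3 reads in DMSO brain, too few for a fold. The 14 others that were lower and had more than 3 reads in DMSO brain differed by 3.44-fold (crybg1a) to 7154-fold (crybb1l1). The median log2 difference was -12.18 as fitted and -10.64 with the genes without reads at their bound, against 0.0602 for all genes. Only 5 crystallins passed the filter in the fit of brain alone, so most of the 46 were tested through their level in embryos and larvae and had to be lower in brain. These counts and the median therefore describe the tested members and support no statement on the family.

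CRYAB ENSDARG00000101380 was higher in brain. The lens chaperone CRYAA was 497-fold lower, a value that rests on 5 reads over all DMSO brain libraries. CRYAA passed the filter only through its level in embryos and larvae and had to be lower in brain. Its drop is therefore no contrast to CRYAB. CRYAB had 26.9, 16.02 and 21.9 CPM in DMSO brain and 2.48, 0.862 and 1.31 CPM in DMSO larvae (13.6-fold, log2 fold change 3.77, SE 0.31, adjusted p = 2.08e-10). CRYBB2 was also higher, at 0.415, 0.985 and 0.433 CPM in DMSO brain and 0.196, 0.0718 and 0.0773 CPM in DMSO larvae (2.28, SE 0.64, adjusted p = 0.00239), which is 9 to 19 reads in a DMSO brain library. This gene passed the filter only through embryo and brain libraries and had to be higher in brain than in larvae. Its call therefore supports no statement. CRYBB2 had 9, 3 and 5 reads in 0.3 nM brains and 6, 2 and 2 reads in 1.2 nM brains. CRYBB3, which passed the filter only through brain, was not called at 0.667 CPM in DMSO brain and 0.302 CPM in DMSO larvae (1.10, adjusted p = 0.0526). The level of crybg1b was close in both, at 5.52 CPM in DMSO brain and 5.06 CPM in DMSO larvae (0.12, SE 0.23, adjusted p = 0.629). Median-ratio size factors shifted the median of all genes by -0.14 in this comparison, a shift larger than the difference of crybg1b.

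Brains of fish exposed to 0.3 nM as embryos differed from DMSO brains in 2 of 5 crystallins tested, in opposite directions, where 13.7% of all 19548 genes were called, 7.82% higher and 5.9% lower. The gene crybg1a had 35.5, 32.7 and 28.3 CPM after DMSO, 17.7, 20.5 and 21.2 CPM after 0.3 nM, and 22.6, 31.2 and 21.2 CPM after 1.2 nM. All 0.3 nM libraries were below all DMSO libraries (log2 fold change -0.68, SE 0.15, adjusted p = 0.0163). The gene crybg1b had 4.85, 6.12 and 5.58 CPM after DMSO, 7.10, 10.1 and 9.10 CPM after 0.3 nM, and 8.62, 5.44 and 5.53 CPM after 1.2 nM. All 0.3 nM libraries were above all DMSO libraries (0.69, SE 0.21, adjusted p = 0.0485). Over all genes, groups did not overlap in 15.4% that were higher and 17.7% that were lower.

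The call of crybg1b was close to the threshold, while that of crybg1a held with each other scaling, test, filter and set of libraries run (adjusted p between 0.000744 and 0.0274) and was lost only when certain replicates were left out. The call of crybg1b was lost with a replicate block (adjusted p = 0.0851), with no filter on low counts (0.0511), in a fit of the 2 groups alone (0.0535) and with the brain libraries thinned to equal depth (0.0585). Without DMSO replicate 1 neither gene was called (crybg1a 0.0535, crybg1b 0.14), and the same held without 0.3 nM replicate 2 (0.0533 and 0.162). The call of crybg1b was also lost without DMSO replicate 2 (0.0512), DMSO replicate 3 (0.109) and 0.3 nM replicate 3 (0.14), and it held without 0.3 nM replicate 1 (0.0318). In the fit of all 24 libraries 3 crystallins were called at 0.3 nM, these 2 genes and the beta A gene cryba1l1 (-1.49, adjusted p = 0.0463), which had at most 14 reads in a brain library.

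CRYAB had 26.9, 16.02 and 21.9 CPM after DMSO, 15.03, 14.9 and 13.6 CPM after 0.3 nM, and 13.5, 22.4 and 11.9 CPM after 1.2 nM. Its 0.3 nM libraries lay below all DMSO libraries, as they did for 17.7% of all genes, but it was not called (-0.55, SE 0.24, adjusted p = 0.164). The remaining pair tested, cryba1l2 (-0.38, adjusted p = 0.56) and CRYBB3 (-0.58, adjusted p = 0.41), had at most 21 reads in a brain library. Beside 7.82% of all genes called higher and 5.9% called lower, 4 of 18 lens transcription factors were higher and 0 lower after 0.3 nM. Of the small heat shock genes, 0 of 8 were higher and 2 lower after 0.3 nM, among them hspb15 at 24.1 CPM after 0.3 nM and 35.3 CPM after DMSO (adjusted p = 0.024).

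Markers of other tissues varied between the brain libraries. The 37 photoreceptor genes summed to 12.2, 236 and 16.03 CPM after DMSO, 12.7, 18.4 and 67.2 CPM after 0.3 nM, and 14.4, 12.4 and 15.2 CPM after 1.2 nM, while the gamma M sums stayed between 0.277 and 1.29 CPM. In these libraries 1 to 16 of the 37 photoreceptor genes had no read. The muscle gene ckma, added after its values were seen, had 17.5, 10.5 and 179 CPM after DMSO, 5.69, 8.04 and 10.1 CPM after 0.3 nM, and 1.60, 9.2 and 9.54 CPM after 1.2 nM. Of 4 tested genes of corneal and skin epithelium 2 fell at 0.3 nM, where 5.9% of all genes were called lower. These were krt8 at 151 CPM against 243 CPM after DMSO (edgeR adjusted p = 0.0293) and icn at 10.8 against 23.3 CPM (adjusted p = 0.018). At 1.2 nM 2 of the 4 fell as well, where 3.36% of all genes were called lower. Of 11 pigment epithelium genes and 8 small heat shock genes tested, 1 of each list was also called lower at 1.2 nM. The part of other tissues in the crybg1a, crybg1b and CRYAB values was not tested. Without DMSO replicate 3, the library with the most ckma, the log2 fold change was -0.77 for crybg1a (adjusted p = 0.0173) and 0.69 for crybg1b (adjusted p = 0.109). Without DMSO replicate 2, the library with the most photoreceptor RNA, it was -0.66 for crybg1a (adjusted p = 0.0309) and 0.78 for crybg1b (adjusted p = 0.0512). Leaving out 1 library cannot decide the part of other tissues. The epithelial genes krt8 and icn were higher in every DMSO brain than in every 0.3 nM brain, as were 17.7% of all genes. Both were also higher in every DMSO brain than in every 1.2 nM brain, as were 17.4% of all genes.

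**Figure D5:**
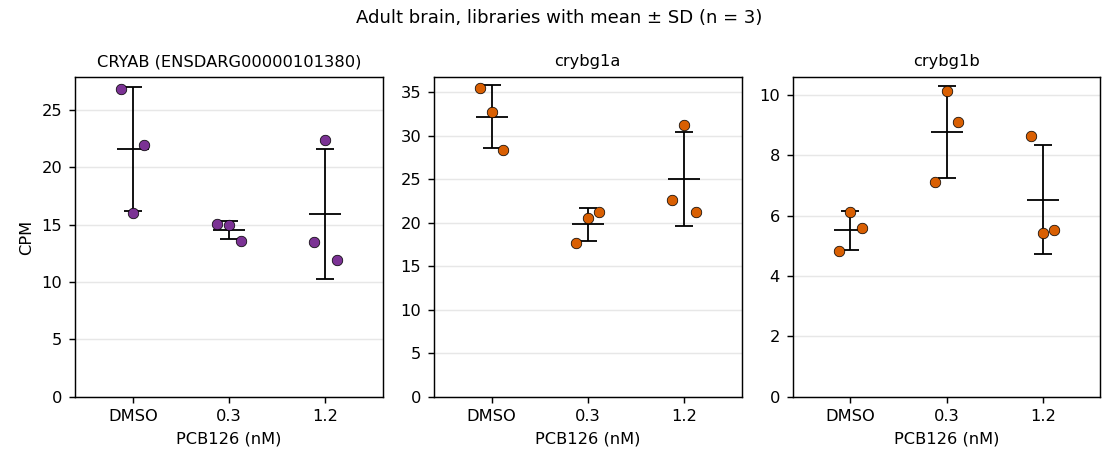
CPM of CRYAB (ENSDARG00000101380), crybg1a and crybg1b in the 9 brain libraries after DMSO, 0.3 nM and 1.2 nM, with mean ± SD (n = 3). At 0.3 nM crybg1a lies between 17.7 and 21.2 CPM, under every DMSO value, and crybg1b between 7.10 and 10.1 CPM, over every DMSO value, while the 1.2 nM libraries spread over both ranges.

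Brains of the 1.2 nM group differed from DMSO brains in 0 of 5 crystallins tested (edgeR; DESeq2 also 0), where 9.05% of all genes were called, 5.69% higher and 3.36% lower, and 1 crystallin and 5445 genes in all had an unadjusted p under 0.05 with edgeR. The log2 fold change was -0.36 (SE 0.15, adjusted p = 0.14) for crybg1a, 0.25 (adjusted p = 0.458) for crybg1b and -0.43 (adjusted p = 0.277) for CRYAB. These have the signs seen at 0.3 nM, and both comparisons share the DMSO brains. In 1 fit of all 24 libraries 3 crystallins were called at this dose, crybg1a (-0.36, adjusted p = 0.0477), cryba1l1 (-1.68, adjusted p = 0.0295) and CRYBA4 (1.10, adjusted p = 0.0424), the last 2 with at most 18 reads in a brain library. The 1.2 nM brains set against the 0.3 nM brains gave 0 called crystallins of 5 (edgeR; 0 by DESeq2; 0 at an unadjusted p under 0.05), where 0.0972% of all genes were called, 0.0512% higher and 0.046% lower. No crystallin had groups that did not overlap there, against 10.1% and 7.53% of all genes.

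The effect of 0.3 nM was compared between brain and larvae in 1 fit of all 24 libraries. Of 46 crystallins 1 differed, crybg1a, where 5.71% of all genes did, 2.69% higher and 3.03% lower. Its log2 fold change was lower by 0.71 in brain than at 5 dpf (SE 0.17, adjusted p = 0.0181), with 17.7 to 21.2 CPM in exposed brains against 28.3 to 35.5 CPM in DMSO brains, and 104 to 118 CPM in exposed larvae against 104 to 122 CPM in DMSO larvae. Without DMSO larva replicate 1 the adjusted p was 0.0521. In the same comparison 6 crystallins and 5089 genes in all had an unadjusted p under 0.05. For 1.2 nM the comparison called 0 of 46 with edgeR (5 at an unadjusted p under 0.05) and 1 with DESeq2, cryba1l1, where edgeR called 1.49% of all genes, 0.506% higher and 0.985% lower.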

How the data were processed

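RNA of 24 zebrafish libraries was measured by stranded, ribosomal RNA-depleted sequencing from a single end, per the labels' protocols. The deposited values are whole-number counts of reads per Ensembl gene, which the authors made with FastQC, STAR and HTSeq on GRCz10, per the submitters' processing notes. EdgeR is named there as well, without tool versions or an annotation release. Counting used the reverse strand in HTSeq's union mode, as the file names give it.

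Groups and replicate numbers came from the sample titles and stage and agent labels. Of the 32105 genes, 26269 received a symbol from a names table, which writes many genes under the ortholog's symbol in capitals. Gene order came from the protein-coding genes of the RefSeq annotation of GRCz12tu.

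Counts were tested with edgeR 4.0.16 (R 4.3.3) by the quasi-likelihood test with TMM scaling and the filterByExpr filter. Each age had 1 fit, while comparisons across ages used 1 fit of all 24 libraries. P-values were adjusted by Benjamini-Hochberg over all genes tested, and a gene was called at an adjusted p under 0.05. The SE is the log2 fold change over the square root of the F value. Levels are CPM on TMM-scaled totals of all 24 libraries, shares are percent of counted reads, and fold changes come from the fits. A group without reads was set to 3 reads over the group. The scripts were tested on simulated data.

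Alternatives were median-ratio size factors, DESeq2 1.42.0, no filter, other sets of libraries in the fit, a replicate block and leaving out each replicate. Thinning the brain libraries to the smallest was added after the data were seen. Same-numbered libraries deviated together at 48 hpf, with correlations of 0.288 to 0.396. The mean for other numbers, -0.174, is no separate evidence, because group means were subtracted first and tie it to the same-number values. The numbers were taken to pair the libraries there, although the labels do not say what a number marks. In the other comparisons not every pair was over 0.1. No libraries of a group agreed within sampling noise (lowest chi-square per degree of freedom 2.42).

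Members and gene lists were chosen with earlier results of these data known. Values in single libraries are given for the member of highest mean CPM in each class other than gamma S, and for CRYAA and CRYAB ENSDARG00000101380. The same holds for members called between PCB126 groups. It also holds for the 2 members of each class with the largest change between DMSO larvae and DMSO embryos, except crygm7. For most of these members some groups are left out or given as a range. Genes of other lists are named where called, at most 6. Other members named were chosen after their values were seen.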

Additional observations from a re-analysis of the deposited data

Results flagged for a closer look

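The effect of 0.3 nM PCB126 on crybg1a, a homolog of human CRYBG1, differed between adult brain and larvae by a test of the difference itself. The log2 fold change was lower in brain than at 5 dpf by the difference -0.7074 (SE 0.17, edgeR quasi-likelihood test, adjusted p = 0.0181), since it was -0.68 in brain and 0.01 at 5 dpf in the fits of each age. All 3 exposed brain libraries lay below all 3 DMSO brain libraries, while exposed and DMSO larvae overlapped. Of 46 crystallins only this 1 differed, where 5.71% of all genes did, and its call was lost without DMSO larva replicate 1. Age, tissue and extraction cannot be told apart in this comparison.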

How the results depend on the processing

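The count of called crystallins stayed at 0 for PCB126 in embryos and larvae under every alternative run. Between DMSO larvae and DMSO embryos it was 21, with 22 to 26 under the alternatives and 17 to 24 when each replicate was left out. Between DMSO brain and DMSO larvae it was 44, with 42 to 46 and 44 to 45. In brain at 0.3 nM the count of 2 became 1 with no low-count filter, with a replicate block, with 2 groups alone and with thinned libraries, rose to 3 in the fit of all 24 libraries, and ranged from 0 to 2 when each replicate was left out. In brain at 1.2 nM it was 3 instead of 0 in the fit of all 24 libraries. For the effect of 1.2 nM in brain against larvae DESeq2 gave 1 instead of 0, and for that of 0.3 nM the count of 1 ranged from 0 to 3 when each replicate was left out, with 3 without 0.3 nM brain replicate 1. The cause of these differences was not tested.

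With TMM-scaled totals the crystallin share was 0.7279% in DMSO embryos and 0.8431% in DMSO larvae. The replicate block changed no call of a crystallin between PCB126 groups other than that of crybg1b in brain. Signs turned when 1 replicate was left out only for members that were not called. The log2 fold change at 0.3 nM ranged from -0.0272 to 0.1382 for crybg1a in embryos. In larvae at 0.3 nM it ranged from -0.1065 to 0.061 for CRYAA, from -0.0391 to 0.0827 for crybg1a, from -0.1311 to 0.7041 for CRYAB and from -0.0346 to 0.3358 for crybg1b. In larvae at 1.2 nM it ranged from -0.5619 to 0.2718 for CRYAB and from -0.026 to 0.0938 for crybg1a, and against 0.3 nM from -0.0305 to 0.0576 for crybg1a. In brain it ranged from -0.0034 to 0.3756 for crybg1b at 1.2 nM, and from -0.2027 to 0.2863 for CRYAB at 1.2 against 0.3 nM.

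Median-ratio size factors shifted the median log2 fold change of all genes by 0.08 for larvae against embryos and by -0.14 for brain against larvae, and by under 0.05 elsewhere. Counts over all genes moved more. At 48 hpf 2 genes were called, 4 with DESeq2, 27 with the block and 1 in the fit of all 24 libraries. In larvae at 0.3 nM the count was 0, with 2 by DESeq2 and 1 with 2 groups alone. In larvae at 1.2 nM it was 10, with 56 by DESeq2, 35 without a filter, 27 with the block and 0 with 2 groups alone, and against 0.3 nM it was 5, with 12, 1 (2 groups alone) and 3 (24 libraries). In brain at 0.3 nM it was 2683 (1529 higher, 1154 lower), with 4120 in the fit of all 24 libraries (1865 higher, 2255 lower) and 1310 with 2 groups alone. In brain at 1.2 nM it was 1769 (1112 higher, 657 lower), with 3435 (1705 higher, 1730 lower), 2698 by DESeq2 and 1027 with the block. For 1.2 against 0.3 nM in brain it was 19, with 160 by DESeq2, 176 with 24 libraries, 29 without a filter and 4 with the block. For the effect in brain against larvae, 0.3 nM gave 1288 (606 higher, 682 lower), with 1990 by DESeq2 and 736 higher and 548 lower with median-ratio size factors, and 1.2 nM gave 336, with 1054 by DESeq2. When each replicate was left out, the count was 1 to 4 at 48 hpf, 0 to 2 in larvae at 0.3 nM, 0 to 30 at 1.2 nM and 1 to 9 for 1.2 against 0.3 nM. In brain it was 960 (without 0.3 nM replicate 2) to 3057 at 0.3 nM, 13 (without 1.2 nM replicate 3) to 2263 at 1.2 nM, and 2 to 30 for 1.2 against 0.3 nM. For the effect of 0.3 nM it was 0 to 1 in larvae against embryos and 540 to 2135 in brain against larvae, and for 1.2 nM 63 to 1112.

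Low crystallin counts limit the brain results, since 621 to 1563 crystallin reads a library left 5 members to test. Brain libraries were not shallower than the others, at 13097392 to 23022236 counted reads against 12480715 to 20662041 in embryos and larvae. Gamma M genes with no read in brain cannot be told from low ones.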
